A study of Mus musculus with 6 samples.

Results

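The broad accessible regions described here are the widest stretches of open chromatin that every library of the study called. Peaks on chromosomes 1 to 19 were merged across the 6 libraries where they touched or overlapped, and regions were selected on width and sharing: all 6 libraries had a peak in the region and it was 2000 bp wide or wider. This gave 1024 regions, among 11379 regions called by all 6 libraries and 68364 merged regions in all. The width that chose them came from the same peaks, so the breadth of the regions is a property of the choice and not a result. The rule did not use the group labels, but its outcome leaned on the EYFP libraries. They set 1728 of the 2048 outer ends of the regions, or 84.4%, and the same rule applied to the 3 libraries of 1 group gave 996 regions from EYFP and 339 from cFos. Group differences in cover, span and peak width are therefore described without a test.

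The libraries were made by ATAC-seq, which cuts and tags DNA free of nucleosomes with a transposase, from the microdissected dentate gyrus of 8-week-old C57BL/6 mice. The strain name is C57BL/6 in the first sample and ends in another number in each of the others. The dentate gyrus is the part of the hippocampus whose main neurons are granule cells. Both groups had been infected with adeno-associated virus (AAV), which carried EYFP, a fluorescent protein, in the 3 control mice and cFos in the other 3. The labels do not settle whether the cFos animals also received EYFP. No source used here gives the promoter of the virus or the share of cells infected. The tissue may have held infected and uninfected cells of any type. Each library came from 1 animal. Whole tissue was used, so a site open in fewer cells and a site less open in each cell cannot be told apart. The regions are given by mm9 position only, because no annotation of that build was used here, and the labelled tissue was therefore not checked against marker genes.

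A single nucleosome-free site is short. Long stretches that read as open usually hold several such sites beside each other, as at active promoters with their flanking elements and at clustered enhancers, with nucleosomes between them. Peak callers report such a stretch as a single long peak when the signal between the sites stays above their threshold and as several short peaks when it does not. cFos pairs with Jun proteins to form AP-1, a transcription factor that binds enhancers in activated neurons and is known to help open them. The question put to the broad regions was how far they were called whole, shortened or in pieces in the 2 groups.

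The lists held between 23088 and 42853 peaks on these chromosomes, EYFP replicate 2 having the longest and cFos replicate 2 the shortest. Read depth is unknown, since peak lists carry no read counts, so no counting error can be given and a base outside a peak was not shown to be closed. EYFP replicate 2 stood apart from the other libraries in most measures below. It set 1013 of the 2048 outer ends of the broad regions, or 49.5%, against 19.4% and 15.8% for EYFP replicates 1 and 3 and 3.81%, 4.30% and 7.96% for cFos replicates 1 to 3. When it was left out and the regions were rebuilt from the other 5 libraries, 675 broad regions were found in place of 1024.

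Most broad regions were only a little wider than the limit. Their median merged width was 2347 bp, the middle of the distribution ran from 2146 to 2740 bp (25th to 75th percentile) and the widest reached 7819 bp. Together they spanned 2612 kb. Shared regions under 2000 bp, 10355 in number, had a median width of 1077 bp. The 180 regions between 2000 and 2099 bp and the 248 between 1900 and 1999 bp were alike in cover. Their median covered shares were 82.3% and 81.5% in EYFP and 62.8% and 62.4% in cFos libraries. The mean shares called in pieces were 5% and 6.32% in EYFP and 7.41% and 9.54% in cFos libraries, higher just under the limit. The narrowest members, of 2000 bp each, lay at chr2:119567694-119569693 and at chr3:121128764-121130763. The widest regions left out, of 1999 bp each, lay at chr2:80420188-80422186 and at chr12:73185628-73187626.

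Width and sharing went together in the lists. Of the merged regions called in 6 libraries, 9.00% were 2000 bp or wider, against 1.34% of those called in 5 libraries, 0.533% in 4, 0.370% in 3, 0.123% in 2 and 0.0334% in 1. The choice of peaks merged over more libraries favours width by construction, so this order is a description only.

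Few broad regions were broad in every animal. A single peak of 2000 bp or more was present in all 6 libraries in 34 of the 1024 regions, in exactly 1 library in 422, and in no library in 214, where the width came from overlapping or adjoining peaks of different libraries. Of the 422, EYFP replicate 2 supplied the long peak in 330. A peak of 2000 bp or more occurred in EYFP libraries alone in 577 regions, in cFos libraries alone in 12, and in both groups in 221. The bases under a peak in all 6 libraries made up 42.5% of the total, with a median of 1040 bp per region, and 16.7% of the bases were under a peak of 1 library only. In 24 regions no base was common to all 6 libraries, and in 169 the common bases fell into 2 or more separate blocks, up to 4.

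Median cover was lower in the cFos libraries, a difference that the choice of regions favours because EYFP libraries set most of their ends. The median covered share, the percent of a region's bases under a library's peaks, was 75.9%, 95.1% and 76.1% in EYFP replicates 1 to 3 and 58.6%, 56.1% and 66.5% in cFos replicates 1 to 3. Every cFos library lay below every EYFP library. The means were 82.4 ± 11.0% in EYFP and 60.4 ± 5.44% in cFos libraries (SD, n = 3 each), differing by -22.0 percentage points. In 968 of the 1024 regions the EYFP mean was the larger, and in 56 the cFos mean, a count not made over all shared regions. Every EYFP library covered more than every cFos library in 33.9% of broad and 34% of all shared regions. With regions set by the 3 cFos libraries alone, an alternative chosen after seeing the data, the difference was -9.05 points and the groups overlapped.

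Peak width entered the choice directly, so the longest peak of a region is likewise given as a description. Its median width within a broad region was 1710, 2148 and 1710.5 bp in EYFP replicates 1 to 3 and 1282, 1236 and 1472 bp in cFos replicates 1 to 3. Again no cFos library reached the lowest EYFP library. The means were 1856 ± 253 bp and 1330 ± 125 bp (SD, n = 3 each), a difference of -526 bp. A region was held by a single peak of 2000 bp or more in 28.9%, 67.0% and 27.1% of cases in EYFP replicates 1 to 3, and in 8.69%, 8.89% and 14.7% in cFos replicates 1 to 3. Such a peak is by itself enough for a shared region to be chosen. With regions set by the cFos libraries alone, the groups overlapped in both measures, with differences of -251 bp and -21.7 percentage points. The median list width of a peak, 437 to 478 bp in cFos and 553 to 569 bp in EYFP libraries, moved in the same direction over all peaks, and its part in these differences was not tested.

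In the narrower shared regions the difference in cover ran the same way. There the median covered share was 82.4 ± 7.48% in EYFP and 63.2 ± 3.25% in cFos libraries (SD, n = 3 each). The gap between broad and narrower regions within each library was -1.50, 4.13 and -2.75 percentage points in EYFP and -3.69, -4.50 and -0.372 in cFos replicates 1 to 3. These ranges overlapped, with a difference of -2.82 points between the group means. Lower cover in cFos libraries was therefore not shown to be particular to broad regions.

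**Figure D1:**
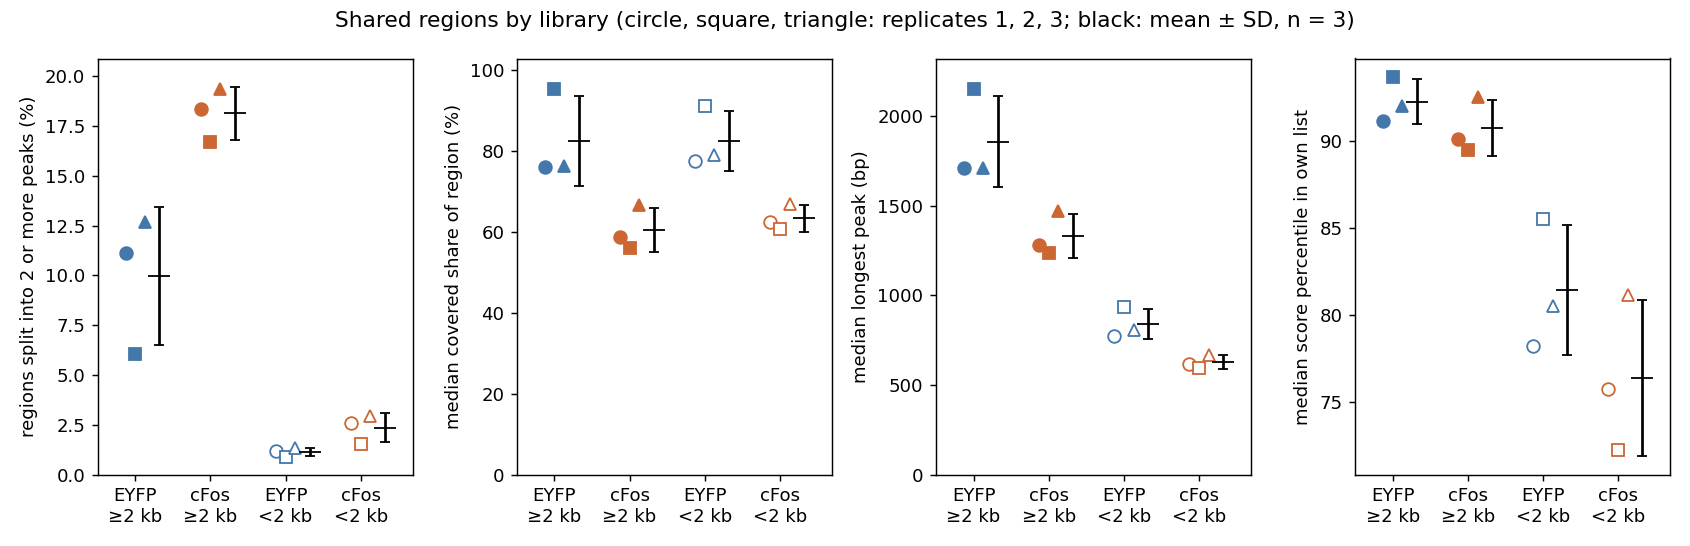
Values per library for shared regions of 2 kb or more (filled symbols) and under 2 kb (open symbols), with EYFP in blue and cFos in orange; circles, squares and triangles are replicates 1, 2 and 3, and black bars give the mean ± SD (n = 3). Of the broad regions, 16.7% to 19.3% were split in cFos libraries and 6.05% to 12.7% in EYFP libraries, and the score percentiles of the groups overlap.

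Most of the difference in cover lay outside the called span. The outer span, from the start of a library's first peak in a region to the end of its last, took up a median of 83.5 ± 10.3% of the region in EYFP and 63.2 ± 5.69% in cFos libraries (SD, n = 3 each), a difference of -20.3 percentage points against ends that EYFP libraries mostly set. Inside the span, the median region was fully covered in all 6 libraries. The mean filled share of the span was 99.1 ± 0.531% in EYFP and 97.2 ± 0.310% in cFos libraries (SD, n = 3 each). It was added after seeing the data because the median was at its limit, and it is described without a test.

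Along the regions, cover was highest near the middle in every library. In the central 10% a region was under a peak in 90.9%, 98.2% and 91.3% of cases in EYFP replicates 1 to 3 and in 80.5%, 78.8% and 86.5% in cFos replicates 1 to 3. In the first 10% these shares were 39.4%, 69.9% and 33.5% in EYFP and 16.5%, 16.2% and 25.02% in cFos libraries. EYFP replicate 2 was highest in both. The edges are by construction the ends of the outermost peaks, mostly EYFP peaks, so higher EYFP cover there follows from how the regions were made.

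**Figure D2:**
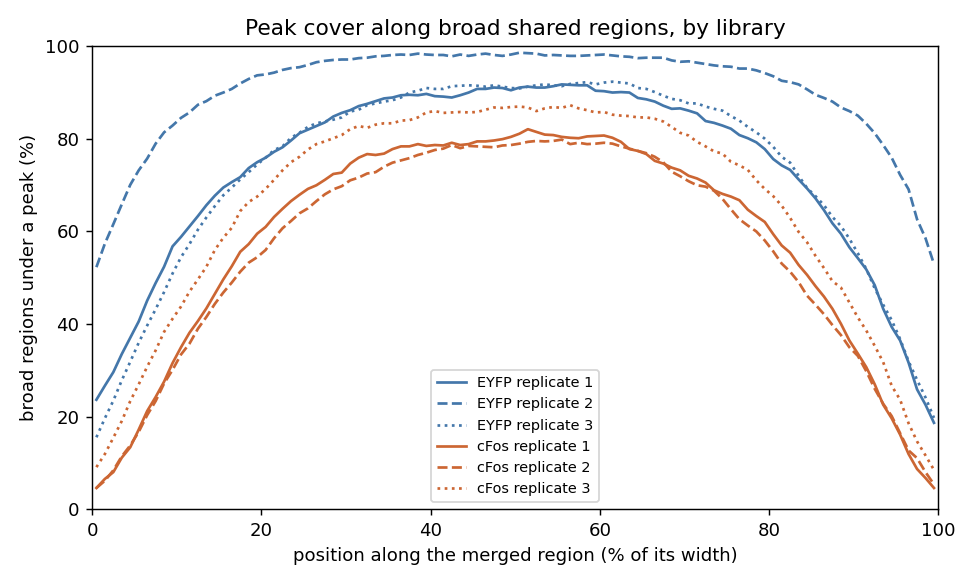
Percent of the 1024 broad regions under a peak (vertical axis) at each position along the merged region, from its start (0%) to its end (100%), for each library; blue lines are EYFP and orange lines cFos, and solid, dashed and dotted lines are replicates 1, 2 and 3. The orange lines lie below the blue lines along the whole width, and in the first 10% the cFos libraries average 16.2% to 25.02% against 33.5% to 69.9%, at edges set mostly by EYFP peaks.

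Broad regions were called in pieces more often in the cFos libraries. EYFP replicates 1 to 3 split 11.1%, 6.05% and 12.7% of the broad regions into 2 or more peaks, and cFos replicates 1 to 3 split 18.4%, 16.7% and 19.3%. The groups did not overlap, at 9.96 ± 3.47% and 18.1 ± 1.33% (SD, n = 3 each), a difference of 8.17 percentage points (two-sided exact permutation p = 0.1, the smallest that 3 against 3 libraries allow, and 0.1625 after Benjamini-Hochberg adjustment over 13 comparisons). The mean number of peaks per region was 1.12, 1.06 and 1.13 in EYFP and between 1.17 and 1.2002 in cFos replicates 1 to 3, and no library had more than 3 peaks in a region. cFos replicate 3 split the largest share. Its list of 33548 peaks was longer than those of EYFP replicates 1 and 3 (28818 and 31916), and its median peak width, 437 bp, was the smallest. The part of list length, peak width or read depth in splitting was not tested. A gap counts only where another library bridges it, so the libraries with wide peaks also make the splits of the others countable. When the regions were set by the 3 cFos libraries alone, 7.36% of 326 regions were split in EYFP and 17.8% in cFos libraries on average, and the groups again did not overlap. When each library was measured on regions set by the other 5, the averages were 9.45% and 17.8%.

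Splitting differed between the groups by more in broad than in narrower shared regions, each taken as a whole. The narrower ones were split in 1.18%, 0.888% and 1.32% of cases in EYFP and 2.60%, 1.55% and 2.95% in cFos replicates 1 to 3. The excess of broad over narrower regions within each library was 9.95, 5.17 and 11.4 percentage points in EYFP and 15.8, 15.2 and 16.4 in cFos replicates 1 to 3, and the groups did not overlap. The difference of 6.94 points had a two-sided exact permutation p of 0.1 (adjusted 0.1625). As a ratio the order was not the same, since cFos exceeded EYFP 1.82-fold in broad and 2.09-fold in narrower regions. Close to the limit the groups differed by more on the narrower side. From 1900 to 1999 bp the mean shares split were 6.32% in EYFP and 9.54% in cFos libraries. From 2000 to 2099 bp they were 5% and 7.41%. This contrast at the limit was not tested. Among peaks above the stricter score of 93.14, the median of the pooled lists, the difference in broad regions was 2.90 points, and after joining peaks across gaps of 200 bp it was 5.39 points.

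Across the width bands, wider regions were split more often on average in both groups. In the narrowest of 5 width bands, which starts at 2000 bp and holds 394 regions, the mean share split was 6.51% in EYFP and 11.4% in cFos libraries, from 2500 to under 3000 bp (227 regions) 12.04% and 22.0%, and from 3000 to under 4000 bp (131 regions) 18.3% and 31.8%. In each of these bands every cFos library was above every EYFP library. The same held below the limit, from 1000 to under 1500 bp and from 1500 to under 2000 bp. Among the 34 regions of 4000 bp or more the groups overlapped, with 35.3%, 8.82% and 26.5% in EYFP and 32.4%, 32.4% and 35.3% in cFos replicates 1 to 3.

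**Figure D3:**
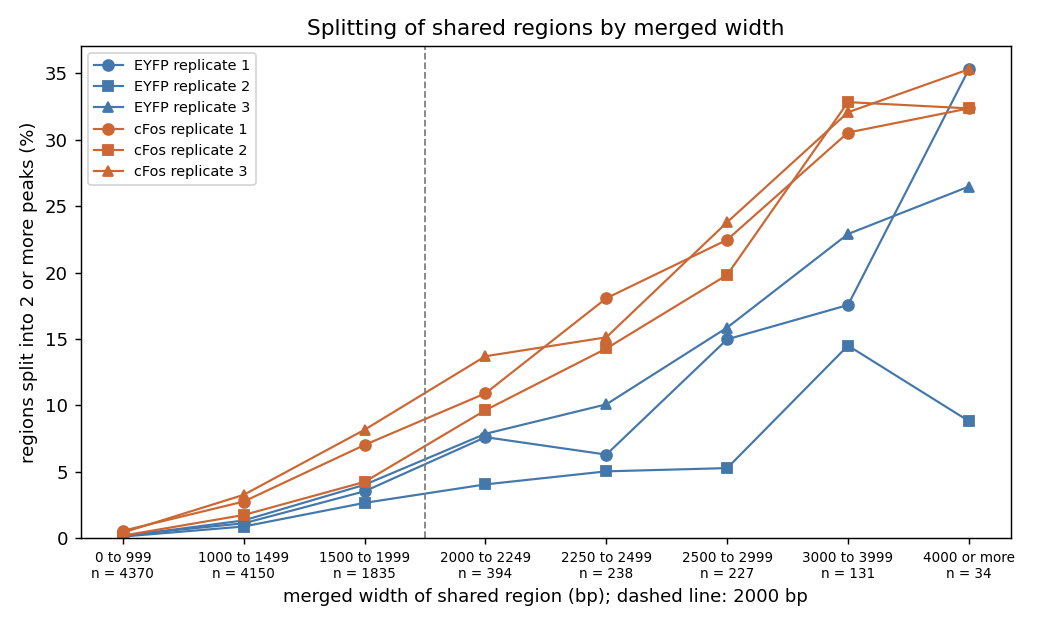
Percent of shared regions split into 2 or more peaks (vertical axis) by merged width (horizontal axis, with the number of regions in each band), 1 line per library; EYFP is blue, cFos orange, and the dashed line marks 2000 bp. The lines of the groups are apart from 1000 to under 4000 bp, on both sides of the limit. They overlap under 1000 bp and in the last band, which holds 34 regions.

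Region by region, most broad regions were never split. Every library had 1 peak in 640 of the 1024, or 62.5%, and 384 were split in at least 1 library. Of these, 170 were split in cFos libraries and no EYFP library, 54 in EYFP libraries and no cFos library, and 160 in both groups. A region was split in a single library in 154 cases and in all 6 libraries in 11. More cFos than EYFP libraries split 247 regions, and more EYFP than cFos libraries split 74. These counts rest on the same 6 libraries and were not made over all shared regions. Narrower regions leaned the same way, with a mean share split of 1.13% in EYFP and 2.36% in cFos libraries. The 640 regions with 1 peak throughout were narrower than the 11 split throughout, with medians of 2306 and 3020 bp, and ranked higher, at a median score percentile of 94.4 against 74.2.

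The gaps between pieces were mostly central, and the widest gap of a library measured between 663 and 2247 bp. EYFP replicates 1 to 3 had 122, 63 and 135 gaps, with median widths of 148, 71 and 129 bp, and cFos replicates 1 to 3 had 196, 175 and 205 gaps, with medians of 246, 232 and 167 bp. The cFos libraries thus had more gaps, and each of their medians was above each EYFP median. For scale, a nucleosome with its linker occupies a little under 200 bp. Gaps of 200 bp or less made up 60.7%, 82.5% and 58.5% of the EYFP gaps and 45.4%, 44.0% and 56.1% of the cFos gaps. Between 93.7% and 97.5% of the gaps of a library were centred in the middle 50% of the region, where a gap has room to lie between peaks.

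Many gaps recurred at the same place. A gap overlapped a gap of another library in 73.8%, 81.0% and 68.1% of cases for EYFP and 61.2%, 65.7% and 62.9% for cFos replicates 1 to 3. In 92 regions at least 1 base lay in a gap of 3 or more libraries, and in 19 in a gap of 5, the most possible, since a base uncovered in all 6 would have divided the merged region. Without EYFP replicate 2 the first count was 48, in rebuilt regions. Gaps of the cFos libraries lay mostly under EYFP peaks, with 82.0%, 81.4% and 79.8% of a gap covered on average by EYFP libraries and 53.0%, 62.0% and 43.4% by the other cFos libraries. At the gaps of the EYFP libraries cover by cFos libraries was lower, at 43.9%, 34.4% and 40.4%, against 80.5%, 62.3% and 76.5% by the other EYFP libraries. Every gap had to be bridged by at least 1 library for the region to exist, and EYFP libraries supplied most of the long peaks.

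In 12 broad regions every cFos library had more peaks than every EYFP library, or 1.17%, against 0.158% of all shared regions. The opposite held in 2, or 0.195%, against 0.0264% of all shared regions. Both shares were above those of all shared regions, and the share split also grew with width among the narrower ones, from a mean of 0.404% under 1000 bp to 6.49% from 1500 to under 2000 bp in cFos libraries. With a library left out the first count was 19, 12 and 19 without EYFP replicates 1 to 3, and 27, 30 and 31 without cFos replicates 1 to 3. Fewer libraries are apart more easily, but without EYFP replicate 2 only 675 broad regions were found. The second was 5 without EYFP replicate 2, 3 without cFos replicate 2 or 3, and 1 without EYFP replicate 1. Above the stricter score the counts were 2 and 0, and after joining across 200 bp 7 and 1.

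The largest difference in number of peaks was at chr2:152221347-152225232, a region of 3886 bp. It held 1, 1 and 2 peaks in EYFP replicates 1 to 3 and 3 peaks in each cFos library. In EYFP replicates 1 and 2 a single peak of 3667 or 3673 bp ran across it. The cFos libraries shared the same 3 pieces, starting at 152221799, 152221835 and 152221866 on the left, at 152223247, 152223550 and 152223359 in the middle and at 152224320, 152224379 and 152224411 on the right. EYFP replicate 3 also had the left gap, between a peak ending at 152222373 and one starting at 152222704, and had no separate right piece. The region's highest peak was at score percentiles 88.4, 90.1 and 80.4 in EYFP and 65.1, 48.2 and 59.6 in cFos replicates 1 to 3, apart between the groups. Above the stricter score the mean number of peaks did not differ between the groups.

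Next came a region at chr18:64424273-64426675, with 1 peak in each EYFP library and 3, 2 and 2 peaks in cFos replicates 1 to 3. Its percentiles were 88.7, 88.6 and 86.0 in EYFP and 46.2, 69.3 and 51.3 in cFos libraries, so here too the pieces ranked lower than the whole peaks. Above the stricter score its direction turned, with 0.333 fewer peaks in cFos libraries on average. The third, at chr2:53936700-53939266, had 1 peak in each EYFP and 2 in each cFos library. There the cFos pieces covered 67.8%, 80.7% and 62.3% of the region against 50.8%, 66.4% and 42.7% in EYFP libraries, and the additional piece lay to the right of where every EYFP peak ended. Its percentiles were alike, from 83.0 to 88.3 in all libraries.

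Both regions with more peaks in every EYFP library had 2 peaks in each EYFP and 1 in each cFos library. At chr6:90411896-90414004, the cFos libraries had the left piece alone, ending at 90412802, 90412802 and 90412801. The EYFP libraries had a second piece to its right, starting at 90413337, 90413296 and 90412986. Cover was 85.7%, 65.0% and 92.4% in EYFP and 31.4%, 25.7% and 35.2% in cFos replicates 1 to 3. The other, at chr13:45602364-45604452, had cover of 77.1%, 83.1% and 66.6% in EYFP and 39.9%, 23.7% and 32.8% in cFos libraries. A missing outer piece and a divided peak therefore both occurred among the broad regions.

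**Figure D4:**
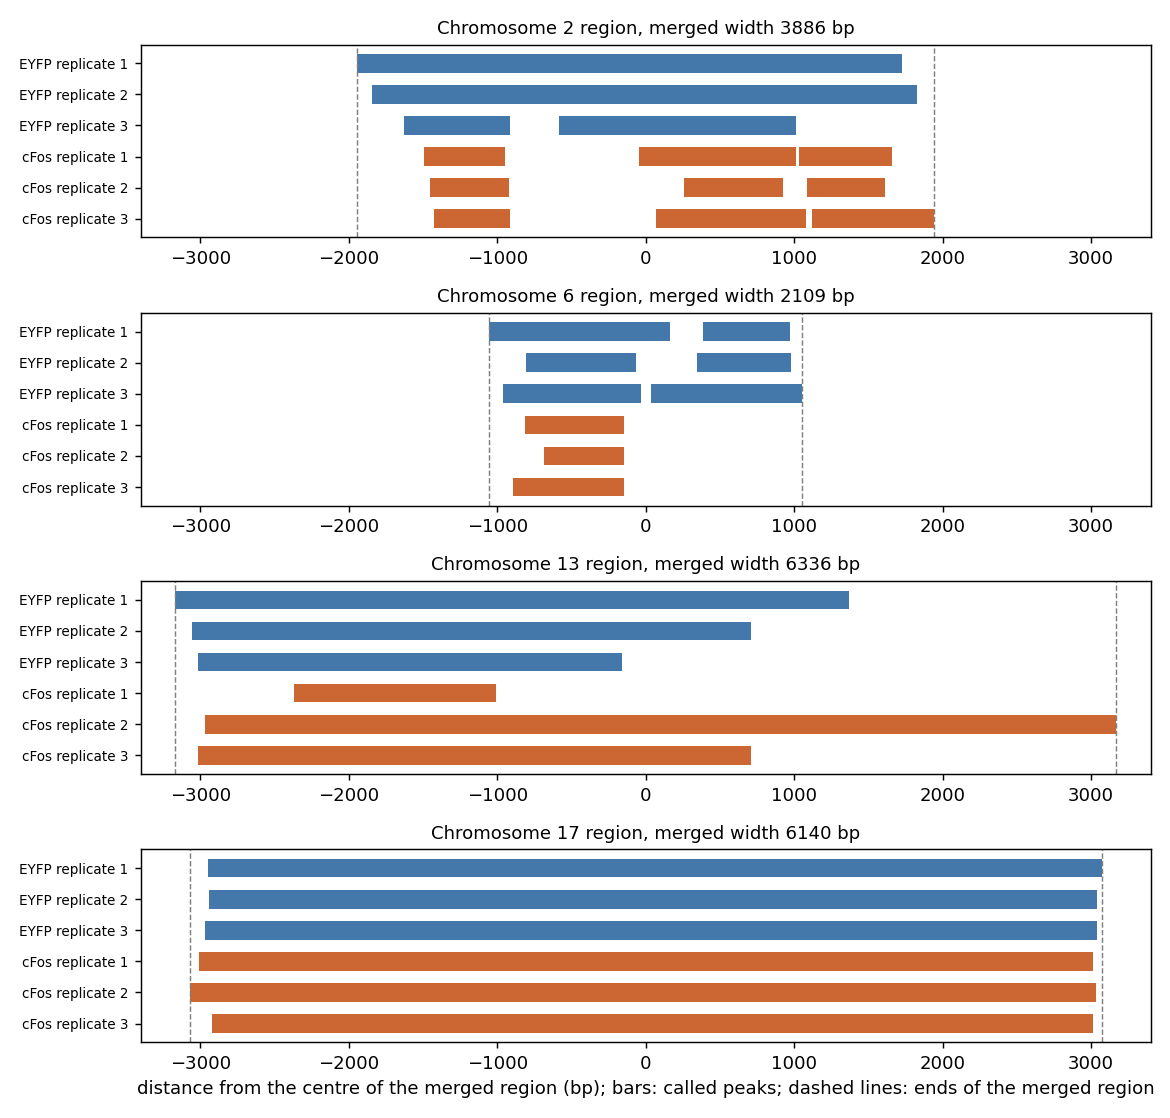
Called peaks (bars) of each library in 4 broad regions, by distance in bp from the centre of the merged region; EYFP is blue, cFos orange, and dashed lines mark the ends of the merged region. The chromosome 2 region (3886 bp) has 3 pieces in each cFos library, the chromosome 6 region (2109 bp) a right piece in the EYFP libraries alone, the chromosome 13 region (6336 bp) ends that differ between libraries, and the chromosome 17 region (6140 bp) 1 full peak in all 6.

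The widest regions were of several kinds. The widest of all, at chr8:19923018-19930836 (7819 bp), was 1 peak in every library, covering 78.4%, 84.6% and 69.0% in EYFP and 76.3%, 93.6% and 87.0% in cFos replicates 1 to 3. Its scores were modest, at percentiles 45.7 to 81.3. The region at chr13:120276160-120282495 (6336 bp) also had 1 peak in each library, but the cover ran from 21.5% in cFos replicate 1 to 96.9% in cFos replicate 2.

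A region at chr17:39979742-39985881 (6140 bp) was the most uniform of the widest 10. All 6 libraries covered between 96.7% and 99.4% of it with 1 peak, at percentiles from 99.91 to 99.97. The region at chr1:24618140-24623276 (5137 bp) was covered to between 92.8% and 96.8% and had the highest score of the lists, 3100, in every library. In both regions the cover of the EYFP and cFos libraries overlapped. Whether they draw wrongly aligned reads was not tested, and the same holds for every region here.

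The fourth widest, at chr17:3079181-3085156 (5976 bp), was split in every library but EYFP replicate 3, which spanned all of it. The 5 others shared a gap in the same place, beginning after 3083399, 3083528, 3083443, 3083397 and 3083476 in EYFP replicates 1 and 2 and cFos replicates 1 to 3. At chr15:61814683-61819775 (5093 bp) the same 5 libraries had 2 peaks and EYFP replicate 3 had 1. The remaining 4 of the widest 10 were covered to over 90% by 1 library each and less by the others. They were chr1:85082745-85087930, covered to 98.4% by cFos replicate 2 and to at most 35.1% elsewhere, and chr14:84842172-84847316, covered to 100% by EYFP replicate 2 and to at most 66.1% elsewhere. chr14:88866650-88871727 was covered to 90.4% by EYFP replicate 2, and chr2:84725015-84729965 to 98.8% by the same library.

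Other members with many pieces lay at chr6:4696418-4699571, with 3, 2, 3, 3, 2 and 3 peaks in EYFP replicates 1 to 3 and cFos replicates 1 to 3, and at chr7:6679839-6683927, with 3, 1, 2, 3, 2 and 2. Both were split in both groups. At chromosome 18, the region from 39648604 to 39651784 had 3, 2, 2, 1, 2 and 3 peaks and that from 65046499 to 65048989 had 2, 1, 2, 3, 3 and 2.

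Broad regions ranked high in every list. The median score percentile of a region's highest peak was 91.1, 93.7 and 92.0 in EYFP and 90.1, 89.5 and 92.6 in cFos replicates 1 to 3. The groups overlapped, at 92.3 ± 1.29 and 90.7 ± 1.61 (SD over 3 libraries; exact permutation p = 0.3, two-sided, adjusted 0.39), and on lists of equal length, 23088 peaks each, the difference turned from -1.54 to 0.498 points. In the narrower shared regions the medians ran from 72.3 to 85.5. For those from 1500 to under 2000 bp the mean of the library medians was 91.7 in EYFP and 89.6 in cFos libraries. High rank was therefore not particular to regions above the limit. Within the broad class rank did not grow with width, since the mean of the library medians was 93.3 in EYFP and 91.9 in cFos libraries in the narrowest band and 81.9 and 80.9 at 4000 bp or more. Of the 1000 highest-scoring peaks of a library, between 25.2% and 27.8% lay in broad regions, which held 2.54% to 5.19% of all its peaks.

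Besides the chromosome 1 and 17 regions already given, the highest mean percentiles belonged to chr2:22442618-22446139, which scored 3100 in every library, chr4:118219459-118221485 and chr18:13131200-13133356. The last 2 scored from 1335.82 to 1969.34 and from 918.35 to 1645.8. All 3 were 1 peak in each library, with cover from 86.6% to 99.4%, and showed no separation of the groups in cover.

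Rank differed between the groups in part of the members. The percentile was higher in every EYFP than in every cFos library in 108 regions, or 10.5%, against 13.2% of all shared regions, and higher in every cFos library in 29, or 2.83%, against 1.98%. On lists of equal length the balance turned, with 46 of 971 broad regions (4.74%, against 6.78% of all shared regions) higher in EYFP and 91 (9.37%, against 6.31%) higher in cFos libraries. The direction of this balance was thus not the same on full and on equal-length lists. On full lists the first count was 215, 78, 160, 152, 149 and 257 without EYFP replicates 1 to 3 and cFos replicates 1 to 3 in turn, and the second 46, 62, 55, 71, 74 and 51.

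The largest shift toward cFos was at chr11:112642500-112644508 (2009 bp). Its scores were 79.85, 95.14 and 73.45 in EYFP and 205.16, 208.52 and 377.36 in cFos replicates 1 to 3, at percentiles 41.3, 45.7 and 36.0 against 82.8, 84.2 and 92.6. The groups were far apart on both scales, by 45.5 percentile points on average. It was also 1 of the 2 broad regions, 0.195% against 0.299% of all shared regions, in which every cFos library covered more than every EYFP library, with 56.5%, 94.5% and 64.1% against 52.7%, 33.8% and 25.6%. The other, chosen for naming after its values were seen, lay at chr5:15006240-15009308, where cover was 80.4%, 83.2% and 70.8% in EYFP and 85.9%, 93.8% and 83.5% in cFos replicates 1 to 3. The reverse, more cover in every EYFP library, held in 347 regions, or 33.9%, against 34% of all shared regions, and with a library left out in 259 to 510.

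Smaller shifts toward cFos followed at chr13:21263282-21265456, chr10:36855684-36859343, chr5:14994221-14996643 and chr8:73314746-73317179. At chromosome 13 the percentiles were 2.48, 34.1 and 51.3 in EYFP and 60.9, 54.4 and 66.9 in cFos replicates 1 to 3, while cover was lower in cFos libraries (46.1% to 62.2% against 72.9% to 97.0%). Rank and cover thus went opposite ways there. In the chromosome 8 region the scores were 127.72, 163.63 and 124.18 in EYFP and 200.45, 192.65 and 207.49 in cFos libraries.

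Toward EYFP the largest shift was at chr14:15177450-15179472, with percentiles of 82.2, 91.4 and 73.0 in EYFP and 8.59, 35.1 and 54.6 in cFos replicates 1 to 3. Cover there was 96.7%, 84.4% and 78.7% against 48.5%, 60.3% and 41.8%. The groups were apart in both measures. The next were chr3:53958672-53961349, chr14:70856669-70859550, chr8:72838975-72841683 and chr3:18840654-18842669. In the first 2 of these 4 no base was under a peak of all 6 libraries.

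Broad regions were unevenly spread over the chromosomes. They made up 13.002% of the shared regions of chromosome 14 (68 of 523), 12.2% of those of chromosome 18 (67 of 550) and 11.5% of those of chromosome 3 (96 of 837). The lowest shares were 2.80% on chromosome 7 (13 of 465), 5.13% on chromosome 11 (29 of 565) and 5.87% on chromosome 9 (29 of 494). The share over all 19 chromosomes was 9.00%. Median widths differed little, from 2272 to 2473 bp. The mean share split was higher in cFos than in EYFP libraries on each of the 19 chromosomes, by 1.15 percentage points on chromosome 16 to 15.4 on chromosome 7, which has 13 broad regions.

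**Figure D5:**
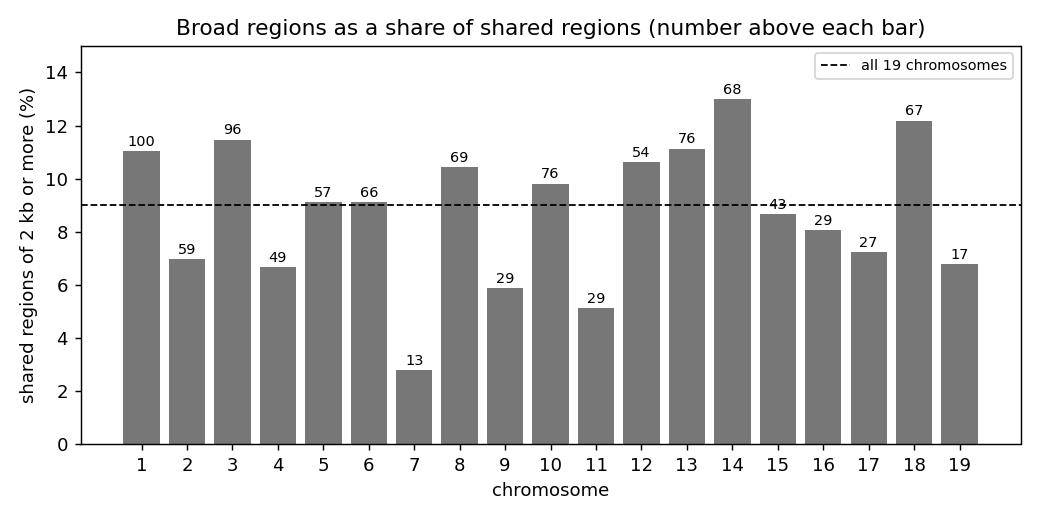
Broad regions as a percent of the regions called in all 6 libraries (vertical axis) for each chromosome, with their number above each bar; the dashed line is the share over all 19 chromosomes (9.00%). Chromosome 14 has the highest share (13.002%) and chromosome 7 the lowest (2.80%).

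Distance to the next shared region was similar for broad and narrower regions. Its median was 48.5 kb from a broad and 48.7 kb from a narrower region, and 48.9% and 49.0% had no other shared region within 50 kb. A broad neighbour was more frequent beside broad regions, with another within 50 kb of 100 of them, or 9.77%, against 6.53% of the narrower ones, a difference that was not tested.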

How the data were processed

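The data were ATAC-seq peak lists of 6 libraries, 3 EYFP and 3 cFos, grouped by their titles. The submitters' processing notes name Bowtie2 and the mm9 build. Each deposited list gave chromosome, start, end, a name beginning with MACS, and a score, which is the authors' own value per peak. No source used here states what it measures, how peaks were thresholded, whether a control was used, or how duplicates and the transposase offset were handled. Scores ran from 50 to 3100 in every list and were used as ranks within a list, as percentiles of the peaks on chromosomes 1 to 19, or to describe a peak. Lower depth can shorten peaks, divide them and remove them.

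Peaks were merged where they touched or overlapped, which gave the same 68364 regions as bedtools 2.31.1. A region takes a library's highest peak for its score. Positions are 1-based. Library values, not regions, were compared between groups by exact permutation of the 20 assignments, two-sided, adjusted by the Benjamini-Hochberg method over 13 comparisons, so no test could fall under 0.05. Tests of cover, span and peak width, which the choice of regions favours, are not reported. The counting was tested on simulated lists. The members and lists were chosen with earlier results of these data known. Regions were named by rule: the widest 10, the 5 with the highest mean percentile, the 5 with the most peaks, the 3 widest with 1 peak throughout, the 3 and 5 most different each way in peaks and in percentile among those whose groups do not overlap, and the 2 on each side of the limit. Gene names, planned marker lists and sequences were not analysed here, as the gene table used GRCm38.p6. No label gave a batch. Alternatives were a stricter score (above 93.14), equal-length lists of 23088 peaks, joining across 200 bp, limits of 1500 and 3000 bp, 50% cover by each library, every sequence name, a held-out rule, a block for the replicate number, and each library omitted in turn. Regions set by 1 group alone, the mean filled share and the covered-share counts were added after seeing the data. The packages scipy 1.17.1, pandas 2.3.3 and numpy 2.4.6 under Python 3.11.15, with plots by matplotlib 3.10.9, were used.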

Additional observations from a re-analysis of the deposited data

How the results depend on the processing

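Differences in peaks per region, share split, covered share, outer span, mean filled share, longest peak and share with a single peak of 2 kb kept their direction under all 17 alternatives, with the share split from 2.90 to 12.7 percentage points higher in cFos libraries and the covered share from -26.1 to -9.05 points. Regions chosen on width favour the EYFP libraries in cover, span and peak width, so these directions are in part fixed by the choice. The difference in median score percentile turned to 0.498 on equal-length lists. Of the broad minus narrower differences, that of the outer span turned to 0.185 without cFos replicate 2 (range without each library -2.73 to 0.185), and with regions set by the cFos libraries alone it was 2.48 and that of the covered share 0.897. The cause was not tested. No exact test could fall under 0.05 in any setting.

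Broad regions numbered 2859 at 1500 bp, 165 at 3000 bp and 461 when each library had to cover 50%, and 675 to 1041 without each library. With 1 peak in every library there were 2142, 73 and 326, and 417 to 673. Split in every library were 0 on the stricter score, 6 on equal-length lists, 3 after joining across 200 bp, 6 at 3000 bp and 5 at 50% cover. Bases in gaps of 3 or more libraries were found in 19 regions on the stricter score, 33 at 3000 bp, 31 at 50% cover, and 48 to 66 without each library.

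More peaks in every cFos library were found in 2 regions on the stricter score, 7 after joining across 200 bp, 3 at 3000 bp and 7 at 50% cover, and in 12 to 31 without each library. More in every EYFP library were found in 0, 1, 0 and 0 under these settings, in 0 on equal-length lists, and in 1 to 5 without each library. Percentiles were higher in every cFos library in 13 regions on the stricter score, 91 on equal-length lists, 52 at 1500 bp, 8 at 3000 bp and 10 at 50% cover, and in 46 to 74 without each library. They were higher in every EYFP library in 46 on equal-length lists, 344, 12 and 39 under the last 3 of these, and in 78 to 257 without each library. Fewer libraries are apart more easily, and wider limits keep fewer regions. Most values of the named regions whose groups did not overlap moved by no more than the spread between replicates. Among them 1 turned, the difference in peaks of the chromosome 18 region from 64424273, to -0.333 on the stricter score.

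Same-numbered libraries did not deviate together. Over the broad regions the correlation of their deviations in covered share from the group means was -0.0868, -0.108 and 0.0106 for numbers 1 to 3. With the replicate number as a block the difference in share split stayed 8.17 points by construction. Its two-sided exact sign-flip p was 0.25, the smallest that 3 pairs allow. No test could fall under 0.05 with or without the block, so the comparison cannot show whether pairing matters.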

Other observations

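Chromosome X lay outside the regions described and was treated in the same way. It held 36 broad regions among 458 regions called by all 6 libraries, or 7.86%. Of these, 36.1%, 22.2% and 33.3% were split in EYFP replicates 1 to 3 and 27.8%, 30.6% and 30.6% in cFos replicates 1 to 3. The groups overlapped, and the mean difference, cFos minus EYFP, was -0.926 percentage points, against 8.17 on chromosomes 1 to 19. Whether chromosome X differs from the other chromosomes was not tested, and each region there makes up 1 of 36. Chromosome Y held 2 broad regions among 16 called by all 6 libraries.

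A further 138 merged regions on chromosomes 1 to 19 were 2000 bp or wider without being called in all 6 libraries, 63 of them in 5 libraries, 27 in 4, 25 in 3, 13 in 2 and 10 in 1.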
